A study of Mus musculus with 14 samples.

Results

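The hexose transporters measured here were 6 genes, *Slc5a1*, *Slc5a9*, *Slc2a2*, *Slc2a5*, *Slc2a1* and *Slc2a3*. They were found as the non-control probes whose gene name in the scanner output was one of these names, which gave 7 of 55681 probes and 6 of 36161 gene names. *Slc5a9* had 2 probes and each of the others had 1. RNA was hybridized to 14 one-color Agilent mouse arrays, 1 array per sample. Healthy small intestine (3 arrays) came from C57BL/6J mice and the study's sample list gives a different mouse for each. Adenomas (3 arrays) and the intestinal tissue next to them (2 arrays) came from APCmin/+ mice, which carry a germline truncating mutation of *Apc* and develop intestinal adenomas. That list gives 1 mouse for all 5 of these pieces, so that the spread within both groups is that between pieces of tissue and not between animals. Colon (3 arrays) is labelled C57BL/6J, although the sample list places 1 colon sample under an APCmin/+ mouse. CT26 (3 arrays) is an established colon carcinoma line of BALB/c origin grown in culture, with no tissue around the cells, and its replicates are samples of 1 line. The labels name the organ or lesion only, and the study calls the healthy colon and small intestine samples mucosa. All 5 smooth muscle markers were well above background on every tissue array.

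Hexoses from the diet cross the intestinal epithelium through transporters on both faces of the enterocyte. SGLT1, encoded by *Slc5a1*, takes up glucose and galactose together with sodium at the brush border, and SGLT4, encoded by *Slc5a9*, is a sodium-coupled carrier of mannose, fructose and related sugars. GLUT5, encoded by *Slc2a5*, carries fructose across the brush border, and GLUT2, encoded by *Slc2a2*, is the carrier through which glucose and fructose leave the cell at its base. GLUT1 (*Slc2a1*) and GLUT3 (*Slc2a3*) are high-affinity glucose carriers. GLUT1 supplies many proliferating cells and tumors, and GLUT3 is best known from neurons and blood cells.

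RefSeq promoters on GRCm38.p6 were at hand for 4 of the 6 genes, and those of the 3 among them that changed in adenomas are shown because they belong to genes that went in opposite directions. Each sequence is the plus strand over the 250 bases before the start, at chr5:33103969-33104218 for *Slc5a1*, chr4:150119094-150119343 for *Slc2a5* and chr4:119108495-119108744 for *Slc2a1*. Capitals mark matches, on either strand, to the hypoxia response core ACGTG, the E-box CACGTG, the GC box GGGCGG, the TATA box TATAAA or the CDX site TTTATG.
Slc5a1: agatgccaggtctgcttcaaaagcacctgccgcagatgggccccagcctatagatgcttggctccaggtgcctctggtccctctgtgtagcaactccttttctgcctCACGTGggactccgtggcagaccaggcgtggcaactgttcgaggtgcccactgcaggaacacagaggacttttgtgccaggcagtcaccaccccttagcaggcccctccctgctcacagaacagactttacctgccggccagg
Slc2a5: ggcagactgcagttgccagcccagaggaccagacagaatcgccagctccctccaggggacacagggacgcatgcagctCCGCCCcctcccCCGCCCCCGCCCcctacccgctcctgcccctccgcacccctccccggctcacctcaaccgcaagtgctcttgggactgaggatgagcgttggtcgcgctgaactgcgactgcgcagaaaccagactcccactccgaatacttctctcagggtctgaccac
Slc2a1: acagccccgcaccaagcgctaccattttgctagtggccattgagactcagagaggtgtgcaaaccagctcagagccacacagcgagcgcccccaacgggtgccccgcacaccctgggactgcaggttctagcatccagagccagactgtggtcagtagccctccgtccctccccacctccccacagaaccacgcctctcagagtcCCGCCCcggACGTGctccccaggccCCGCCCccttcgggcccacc

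The search covered 300 bases, with 50 bases after the start that are not printed. The *Slc5a1* window held 1 E-box from -143 to -138, and since ACGTG lies inside CACGTG on both strands, its 2 hypoxia response cores were the same letters. The *Slc2a1* window held 1 hypoxia response core from -36 to -32, 2 GC boxes and, after the start, 1 TATA box from 29 to 34. The *Slc2a5* window held 3 GC boxes, and the *Slc2a2* window, which lies on chromosome 3, held none of these motifs. Among 32851 promoter windows of this length, 19.6% held the hypoxia response core, 7.15% the E-box, 35.7% the GC box, 13.6% the TATA box and 11.9% the CDX site. The G and C content was 60.3% for *Slc5a1*, 65.3% for *Slc2a5*, 65.3% for *Slc2a1* and 48% for *Slc2a2*, against a median of 52.7% over all windows. These matches are letters in a window and describe no binding.

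All levels below are log2 of the processed signal minus the 75th percentile of log2 signals on the same array, so that 0 is the level of that percentile and 1 unit is a doubling. Levels of different probes depend on each probe's own response and were not compared between genes. The probe of *Slc5a1* lies at chr5:33504561-33504620 on NCBI37/mm9, that of *Slc2a1* at chr4:118809864-118809923, that of *Slc2a5* at chr4:149517775-149517834, that of *Slc2a2* at chr3:28627016-28627075, that of *Slc2a3* at chr6:122678075-122678134 and those of *Slc5a9* at chr4:111549855-111549914 and chr4:111548878-111548937. A gene was called changed between 2 groups when the log2 fold change (log2FC) of a probe was at least 1.2 either way with an adjusted p no higher than 0.01. The test was a two-class limma fit over the probes that cleared background throughout 1 group or both.

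On the arrays, 46.8% to 58.2% of probes were well above background, and no member probe was saturated. The array of colon replicate 3 stood apart. It correlated with the small intestine arrays at 0.951 to 0.969 and with the other colon arrays at 0.934 and 0.938, while those correlated with each other at 0.985. The summed level of 8 colonocyte markers was 6.64 on it against 8.75 and 8.81, with 4 of the 8 above background against all 8, and that of 10 markers of small intestine enterocytes was 11.49 against 6.87 and 7.59. Results with colon are therefore given with and without this array. CT26 had none of *Epcam*, *Cdh1* and *Vil1* above background, and 3 or 4 of 8 epithelial markers, against 8 of 8 on every tissue array.

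**Figure D1:**
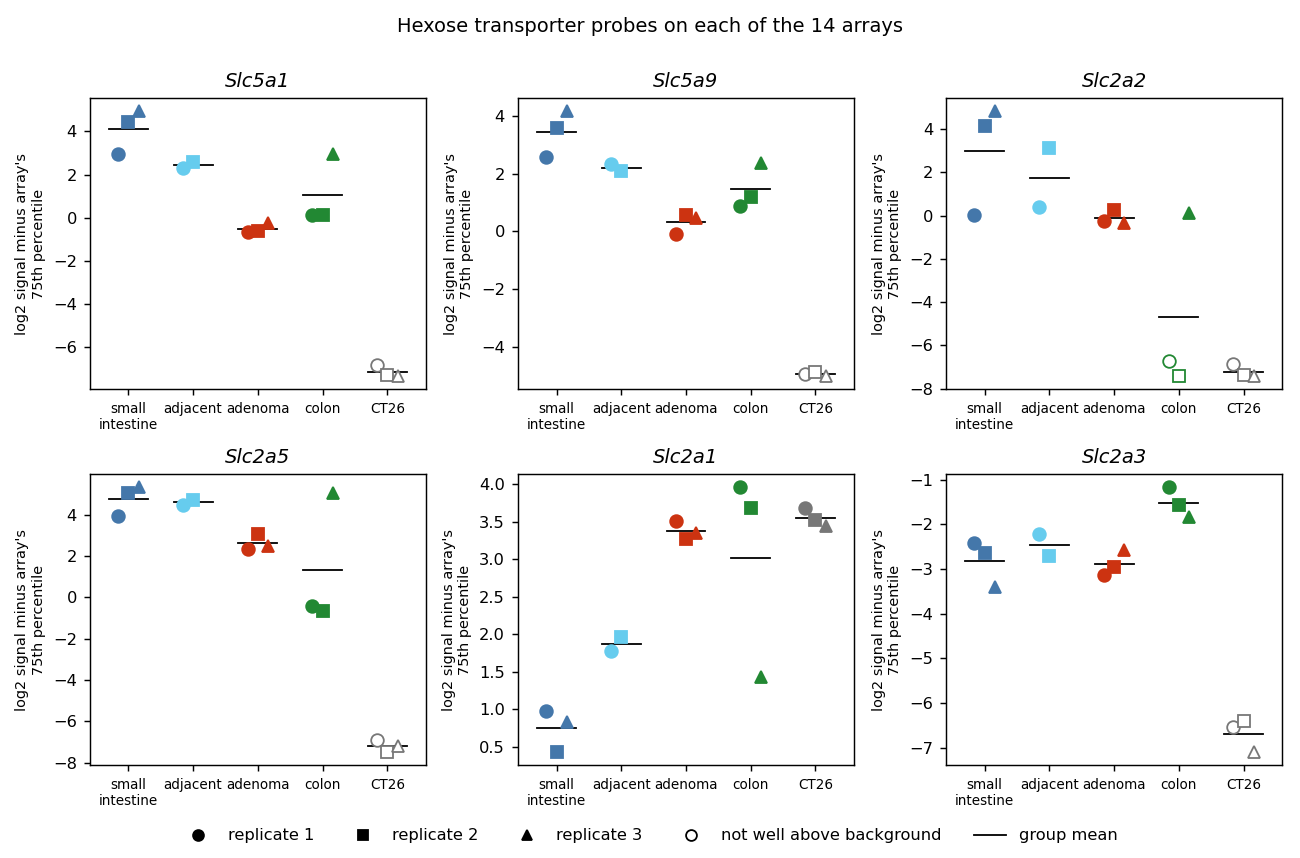
Level of each gene on each of the 14 arrays (vertical axis, log2 processed signal minus the array's 75th percentile; for *Slc5a9* the brighter probe) by group, with replicates as symbols, group means as lines and open symbols for signals not well above background. *Slc5a1* ran from 2.93 to 4.93 in small intestine and from -0.67 to -0.26 in adenomas, while *Slc2a1* ran from 0.43 to 0.97 and from 3.28 to 3.51.

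In adenomas, the sodium-coupled brush border transporters and GLUT5 were lower than in healthy small intestine, and GLUT1 was higher. *Slc5a1* was at 2.93, 4.46 and 4.93 in small intestine and at -0.67, -0.63 and -0.26 in adenomas. The lowest healthy array was well above the highest adenoma. Its log2FC was -4.62 ± 0.486 (SE, n = 3 and 3), 24.7-fold lower, with an adjusted p of 0.000494. *Slc5a9* was at 2.58, 3.58 and 4.15 in small intestine and at -0.083, 0.58 and 0.46 in adenomas, also without overlap. It fell with a log2FC of -3.12 ± 0.405 (SE, adjusted p = 0.00111), and its other probe gave -3.35 ± 0.391 (adjusted p = 0.000729).

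*Slc2a5* was at 3.95, 5.04 and 5.33 in small intestine and at 2.35, 3.08 and 2.48 in adenomas. The groups did not overlap, but they lay closer together than those of *Slc5a1*. The log2FC was -2.14 ± 0.387 (SE), 4.4-fold lower, with an adjusted p of 0.00415. *Slc2a5* remained well above background on every adenoma. Leaving out small intestine replicate 2 or 3, or adenoma replicate 1, 2 or 3, gave a log2FC between -2.36 and -1.86 with adjusted p between 0.011 and 0.0192, which ended the call. The call was also lost with no filter on dim probes (adjusted p = 0.0104) and in a fit of all 5 groups (adjusted p = 0.152).

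*Slc2a2*, the basal exit carrier, was at 0.045, 4.15 and 4.82 in small intestine and at -0.25, 0.28 and -0.33 in adenomas. Its healthy arrays differed among themselves by 27.3-fold, and replicate 1 lay within the adenoma range. The log2FC of -3.1 ± 1.14 (SE, adjusted p = 0.0557) did not pass the test. Without small intestine replicate 1 it was -4.58 with an adjusted p of 0.000194, which is a call.

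*Slc2a1* moved the other way. It was at 0.97, 0.43 and 0.83 in small intestine and at 3.51, 3.28 and 3.35 in adenomas, with every adenoma above every small intestine array. The log2FC was 2.64 ± 0.195 (SE), 6.21-fold higher, with an adjusted p of 0.000148. *Slc2a3* was at -2.41, -2.65 and -3.41 in small intestine and at -3.13, -2.96 and -2.58 in adenomas, and the groups overlapped. Its log2FC was -0.07, with a 95% interval from -0.76 to 0.63 and an adjusted p of 0.862.

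Of the 6 genes, 1 was called higher and 3 were called lower. Of all 22128 genes tested in this comparison, 12.2% were called higher and 12.1% lower, and the median log2FC over all probes was -0.15. Other cells of the tissue differed between the groups as well. The summed level of 8 epithelial markers was 11.22 to 11.62 in small intestine and 10.47 to 10.7 in adenomas, all 8 being above background throughout. That of 10 enterocyte markers was 11.08 to 11.92 and 8.65 to 9.36, and 7 of the 10 were called lower. Red blood cell markers ran from 2.1 to 3.59 and from 6.82 to 7.15, with 3 of 3 tested called higher. The summed level of 5 neutrophil markers overlapped, at 4.9 to 5.72 and 5.54 to 5.76, although 3 of the 4 tested were called higher, with 1 to 3 above background in small intestine and 4 in adenomas. Of 10 proliferation genes, 8 were called higher, and their summed level was 5.61 to 6.51 and 7.35 to 7.49. Smooth muscle markers summed to 6.52 to 8.47 and 5.96 to 6.21, with 1 of 5 called lower. Of 5 neuronal markers 1 was called lower, *Snap25* (log2FC -3.11), while the list median was -0.07. Among 5 endothelial markers 3 were called higher, *Cdh5* by a log2FC of 3.93, although their summed level overlapped, at 3.45 to 3.99 and 3.26 to 3.83. Among 4 macrophage markers 1 was called higher. The part of these in the differences was not tested. In bulk tissue, fewer cells of a type and less RNA per cell cannot be told apart.

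The question of the comparison with adjacent tissue is how an adenoma differs from the tissue beside it in the same mouse. The same 4 genes passed the thresholds in the same directions. *Slc5a1* was at 2.29 and 2.56 in adjacent tissue, above all adenomas, with a log2FC of -2.94 ± 0.199 (SE, n = 3 and 2, adjusted p = 0.00249). *Slc5a9* was at 2.32 and 2.1, and its log2FC was -1.89 ± 0.242 (SE, adjusted p = 0.00839), or -2.01 ± 0.209 (adjusted p = 0.00576) on its other probe. *Slc2a5* was at 4.49 and 4.71, and fell with a log2FC of -1.96 ± 0.258 (SE, adjusted p = 0.00898).

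*Slc2a1* was at 1.77 and 1.96 in adjacent tissue, below every adenoma and above every array of healthy small intestine. It rose in adenomas by a log2FC of 1.51 ± 0.161 (SE), 2.85-fold, with an adjusted p of 0.00593. *Slc2a2* was at 0.4 and 3.11 in adjacent tissue, and its log2FC of -1.86 ± 0.761 (SE, adjusted p = 0.135) did not pass. *Slc2a3*, at -2.21 and -2.72, had a log2FC of -0.43 with a 95% interval from -1.03 to 0.18 (adjusted p = 0.253). Over all 22230 genes tested, 2.64% were called higher and 2.01% lower, and the median log2FC over all probes was -0.048. Red blood cell markers summed to 5.61 to 6.16 in adjacent tissue, between healthy tissue and adenomas, and the 8 epithelial markers summed to 10.29 to 10.61, which overlapped with adenomas. The 10 enterocyte markers summed to 10.73 to 10.97 in adjacent tissue and 8.65 to 9.36 in adenomas, and 3 were called lower. Of 4 neutrophil markers tested 2 were called higher, as were 2 of 10 proliferation genes. Smooth muscle markers had a median log2FC of -1.51, with 0 of 5 called. Their part in the differences of the transporters was not tested. The calls of the transporters rested on few pieces. Leaving out adenoma replicate 1, 2 or 3 left 0 of the 6 genes called, leaving out adjacent replicate 1 left 2, and leaving out adjacent replicate 2 left 3, while the log2FC of *Slc5a1* stayed between -3.08 and -2.81 and that of *Slc2a1* between 1.42 and 1.61. A fit of all 5 groups and a test of every probe with no filter on dim signals each called 0 of them. Counts over all genes in these fits are not given here. A loss of calls particular to the 6 genes therefore cannot be read from them.

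Between adjacent tissue and healthy small intestine, limma called 0 of the 6 genes. Of 21673 genes tested, 0.00923% were called higher and 0% lower, so that few genes of any kind passed here. At an unadjusted p under 0.05, 3 of the 6 genes differed, against 33.8% of all genes. *Slc2a1* had a log2FC of 1.12 ± 0.248 (SE, n = 2 and 3, adjusted p = 0.0657), without overlap between the groups. *Slc5a1* had -1.68 ± 0.59 (adjusted p = 0.128) and *Slc5a9* -1.23 ± 0.467 (adjusted p = 0.146), also without overlap. For *Slc2a5* the log2FC was -0.17, with a 95% interval from -1.24 to 0.9, and for *Slc2a2* it was -1.25, with an interval from -5.07 to 2.57.

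**Figure D2:**
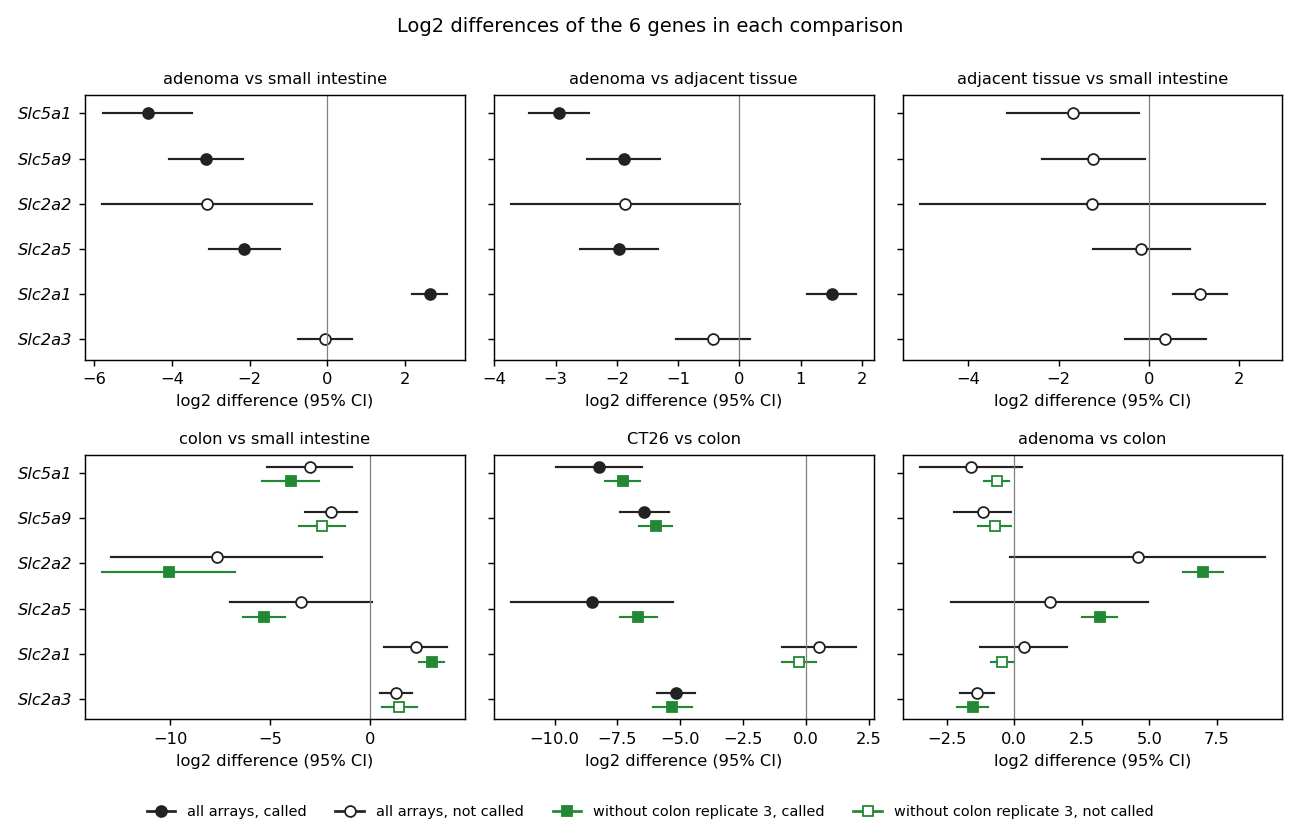
Log2 difference of each gene (horizontal axis, points, with 95% confidence intervals as bars, axes differing between panels) in the 6 comparisons, with filled symbols for calls and squares for fits without colon replicate 3. *Slc5a1* fell by 4.62 against small intestine and by 2.94 against adjacent tissue, and *Slc2a1* rose by 2.64 and 1.51. In CT26, and for *Slc2a2* in colon, the points use signals below background and do not give the size of the difference.

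The colon, which absorbs little sugar, was set against small intestine. With all 3 colon arrays limma called 0 of the 6 genes, where 0.00483% of 20688 genes were called higher and 0.00483% lower. At an unadjusted p under 0.05, 5 of the 6 genes differed, against 26.8% of all genes. *Slc5a1* was at 0.126, 0.128 and 2.97 in colon replicates 1, 2 and 3, and *Slc2a5* at -0.42, -0.64 and 5.05. *Slc2a2* was not well above background on replicates 1 and 2 and was at 0.14 on replicate 3. On all 3 genes, replicate 3 lay within the range of small intestine and the other colon arrays below it.

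Without colon replicate 3, 1 of the 6 genes was called higher and 3 lower, where 3.82% of all genes were called higher and 4.22% lower. *Slc2a5* was 39.5-fold lower in colon than in small intestine, with a log2FC of -5.3 ± 0.437 (SE, n = 2 and 3, adjusted p = 0.00139). *Slc5a1* was 15.8-fold lower, with a log2FC of -3.98 ± 0.582 (SE, adjusted p = 0.00772). *Slc2a2* was at least 257-fold lower by the group means (adjusted p = 0.00615), a bound that takes the lowest signal well above background on each colon array as its ceiling. The small intestine arrays spanned 27.3-fold themselves, and the bound does not take in that spread. *Slc5a9* had a log2FC of -2.4 ± 0.47 (SE, adjusted p = 0.0181) and did not pass. Unlike the absorptive carriers, *Slc2a1* was higher in colon, at 3.96 and 3.68, with a log2FC of 3.08 ± 0.265 (SE, adjusted p = 0.00158). *Slc2a1* on replicate 3 was at 1.43. *Slc2a3* was at -1.17, -1.56 and -1.84 in colon, above every other array of the series, with a log2FC of 1.3 ± 0.343 (SE, adjusted p = 0.108) with replicate 3 and 1.46 ± 0.357 (adjusted p = 0.0342) without it. Among 5 neuronal markers, *Tubb3*, *Uchl1*, *Prph* and *Elavl4* had log2FC of 1.53, 1.32, 1.68 and 0.67 between colon and small intestine, and *Snap25* had -0.75. The list median was 1.32, or 1.65 without colon replicate 3, and 0 of the 5 were called by limma in either fit. The 5 B cell markers summed to 2.14, 2.72 and 5.18 on colon replicates 1, 2 and 3 and to -0.34 to -0.05 in small intestine. Without colon replicate 3, 3 of them were called higher. Replicate 3 had the highest of these sums and the lowest colon level of *Slc2a3*. The part of the neuronal and B cell markers in the level of *Slc2a3* was not tested.

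Adenomas were also set against colon. With all arrays limma called 0 of the 6 genes, where 2.29% of 21905 genes were called higher and 1.75% lower, and 2 of the 6 genes had an unadjusted p under 0.05, against 31.8% of all genes. The lowest adjusted p was that of *Slc2a3*, with a log2FC of -1.37 ± 0.257 (SE, adjusted p = 0.0237). Without colon replicate 3, 2 genes were called higher and 1 lower, where 5.51% of all genes were called higher and 7.45% lower. *Slc2a5* was 8.98-fold higher in adenomas (log2FC 3.17 ± 0.261, SE, adjusted p = 0.00113), *Slc2a2* was at least 29.9-fold higher (adjusted p = 0.00021) and *Slc2a3* was lower (log2FC -1.52 ± 0.231, SE, adjusted p = 0.0072). For *Slc5a1* the log2FC was -0.65, with a 95% interval from -1.11 to -0.18 (adjusted p = 0.0506), and for *Slc2a1* it was -0.44, with an interval from -0.87 to -0.01 (adjusted p = 0.112). With colon replicate 3 the difference of *Slc2a1* was 0.36, so that its direction rested on that array. Markers of other cells moved in the same comparison. In the fit without colon replicate 3, 5 of 5 smooth muscle markers (median log2FC -2.92), 4 of 5 B cell markers and 2 of 5 neuronal markers were called lower in adenomas, while 8 of 10 enterocyte markers, 3 of 4 neutrophil markers and 3 of 3 red blood cell markers were called higher. Their part in the differences of the transporters was not tested.

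In CT26 cells only *Slc2a1* was well above background. It was at 3.69, 3.52 and 3.45, and the difference from colon was 0.53 ± 0.638 (SE, n = 3 and 3, adjusted p = 0.521) with a 95% interval from -0.96 to 2.01. Without colon replicate 3 that difference was -0.27, with an interval from -0.93 to 0.39 (adjusted p = 0.445). *Slc5a1*, *Slc5a9*, *Slc2a2*, *Slc2a5* and *Slc2a3* were above background on 0 of 3 CT26 arrays. Against colon, *Slc5a1* was at least 81.6-fold lower (adjusted p = 8.93e-05) and *Slc5a9* at least 79-fold lower (adjusted p = 1.71e-05), or at least 43.3-fold on its other probe. *Slc2a5* was at least 97.4-fold lower (adjusted p = 0.00163) and *Slc2a3* at least 13.5-fold lower (adjusted p = 1.53e-05). Without colon replicate 3 these bounds were 42.3-fold, 57.9-fold (31.5-fold on the other probe), 26.8-fold and 15-fold, and all 4 genes were still called. *Slc2a2* was not tested, being above background on 1 of 3 colon arrays. Calls thus numbered 4 lower and 0 higher of 5 genes tested, where 23.4% of 21770 genes were called higher and 17.1% lower, or 22.4% and 21% without colon replicate 3. The call of *Slc2a5* was lost without CT26 replicate 1, at an adjusted p of 0.0105. The median log2FC over all probes was 0.37 in this comparison.

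Put in order of the group means, *Slc5a1* ran from small intestine (4.11) through adjacent tissue (2.43), colon (1.07) and adenomas (-0.52) to CT26. Adjacent tissue and colon overlapped, and without colon replicate 3 colon stood at 0.13. *Slc5a9* had the same order on both probes. *Slc2a2* and *Slc2a5* had the order small intestine, adjacent tissue, adenomas, colon and CT26. Small intestine and adjacent tissue overlapped on both genes, as did adenomas and colon, and colon and CT26 on *Slc2a2*. *Slc2a1* had CT26 (3.55), adenomas (3.38) and colon (3.02) at the top, each overlapping with the next, then adjacent tissue (1.87), which overlapped with colon, and small intestine (0.74). Without colon replicate 3 the colon mean of *Slc2a1* was 3.82, above that of CT26. *Slc2a3* had colon (-1.52) first, then adjacent tissue (-2.46), small intestine (-2.82) and adenomas (-2.89), the last 3 of which overlapped.

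Over the 11 tissue arrays the Pearson correlation of *Slc5a1* with *Slc2a1* was -0.95 and that with *Slc5a9* 0.984, while *Slc2a2* and *Slc2a5* correlated at 0.932. *Slc2a3* had correlations of -0.803 with *Slc2a2*, -0.601 with *Slc2a5*, -0.235 with *Slc5a1*, -0.201 with *Slc5a9* and 0.347 with *Slc2a1*. The points share the groups of the design and are given as a description. Over all 14 arrays, CT26 included, 23651 genes were ranked by their correlation with each member. Names that were only clone, accession or predicted-gene identifiers were then left out, and some of these may have ranked higher. Of the names left, the 3 most like *Slc5a1* were *Fam78a* (r = 0.996), *Slc5a9* (0.995) and *Hook2* (0.995). Those most like *Slc5a9* were *Cox7a1*, *Slc5a1* and *Sema6a*, at 0.995 each. *Slc2a2* was most like *Leap2*, a small secreted peptide of liver and intestine (0.993), *Hsd17b6* (0.988) and the brush border peptidase *Mme* (0.986). *Slc2a5* was most like *Hnf4g*, an intestinal nuclear receptor (0.994), the glycerol-phosphate dehydrogenase *Gpd1* (0.994) and the chylomicron protein *Apob* (0.992). *Slc2a1* was most like the aldo-keto reductase *Akr1b8* (0.966), *Foxred2* (0.961) and the motor protein *Myo10* (0.949), and *Slc2a3* most like *Clip3* (0.994), *Trp53i11* (0.994) and *Ndrg4* (0.993). *Slc2a1* had its highest group mean in CT26 cells (3.55) with all arrays, and in colon (3.82) without colon replicate 3. The other 5 genes were not above background in CT26, so that their correlations over all 14 arrays include CT26 signals below background. *Slc5a1* with *Slc2a3* had 0.824 over 14 arrays and -0.235 over the 11 tissue arrays. *Slc2a5* with *Slc2a3* had 0.801 and -0.601, while *Slc5a1* with *Slc5a9* had 0.995 and 0.984. The most alike genes over the tissue arrays alone are not given here, and the part of CT26 in the ranking was not tested.

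**Figure D3:**
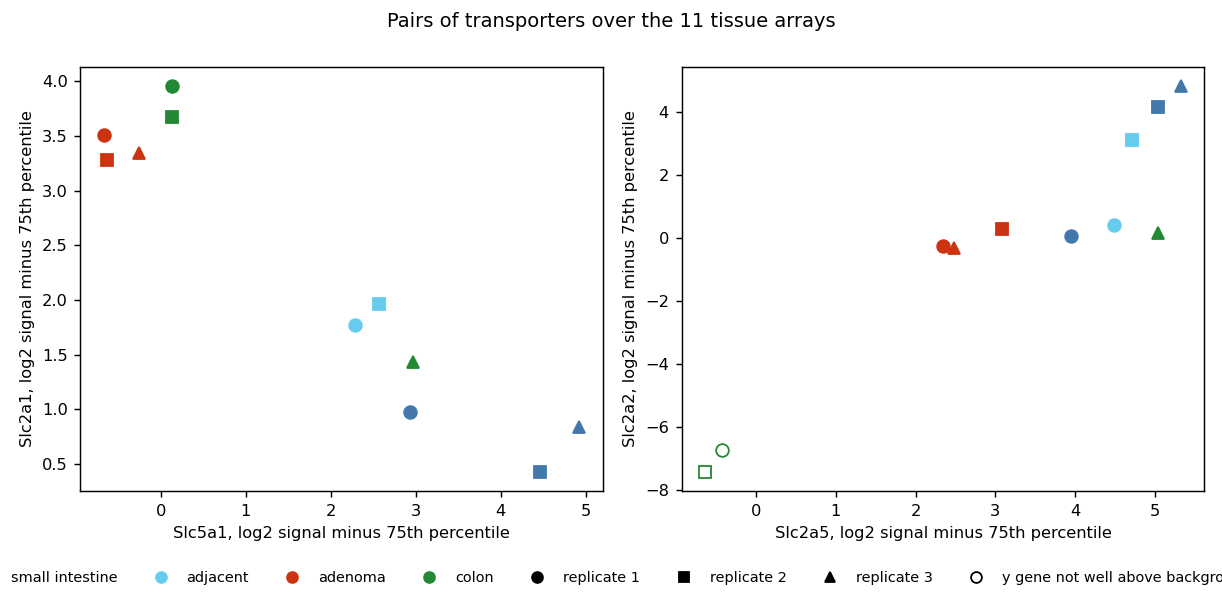
Level of *Slc2a1* against *Slc5a1* (left) and of *Slc2a2* against *Slc2a5* (right) on the 11 tissue arrays (both axes log2 processed signal minus the array's 75th percentile), colored by group, with replicates as symbols. Adenomas and colon replicates 1 and 2 had *Slc5a1* at 0.13 or less and *Slc2a1* at 3.28 or more, while the other arrays had *Slc5a1* at 2.29 or more and *Slc2a1* at 1.96 or less.

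The spread of *Slc2a2* within groups went together with markers of the ileum, the last part of the small intestine. *Fabp6*, the bile acid binding protein of ileal enterocytes, was at 9.95, 1.6 and -1.74 on small intestine replicates 1, 2 and 3, where *Slc2a2* was at 0.045, 4.15 and 4.82. In adjacent tissue *Fabp6* was at 8.12 and -0.83, and *Slc2a2* at 0.4 and 3.11. The arrays with high *Fabp6* were thus those with low *Slc2a2* in both groups. Colon replicate 3 had *Fabp6* at 11.12 and *Slc2a2* at 0.14, and the ileal bile acid transporter *Slc10a2* was at 6.91 on it and at 5.56 on small intestine replicate 1. Adenomas had *Fabp6* from -1.78 to -1.43 and *Slc2a2* from -0.33 to 0.28. These markers were chosen after their values had been seen, and their part in the levels of the transporters was not tested. *Slc2a5* varied less, from 3.95 to 5.33 over the small intestine arrays, the adjacent arrays and colon replicate 3. Low levels on small intestine replicate 1 were not particular to *Slc2a2*. *Slc5a1* was at 2.93 there against 4.46 and 4.93 on replicates 2 and 3, and *Slc5a9* at 2.58 against 3.58 and 4.15. In adjacent tissue, *Slc5a1* was at 2.29 where *Fabp6* was high and at 2.56 where it was low. For *Slc5a9* the order there was the other way, at 2.32 and 2.1.

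**Figure D4:**
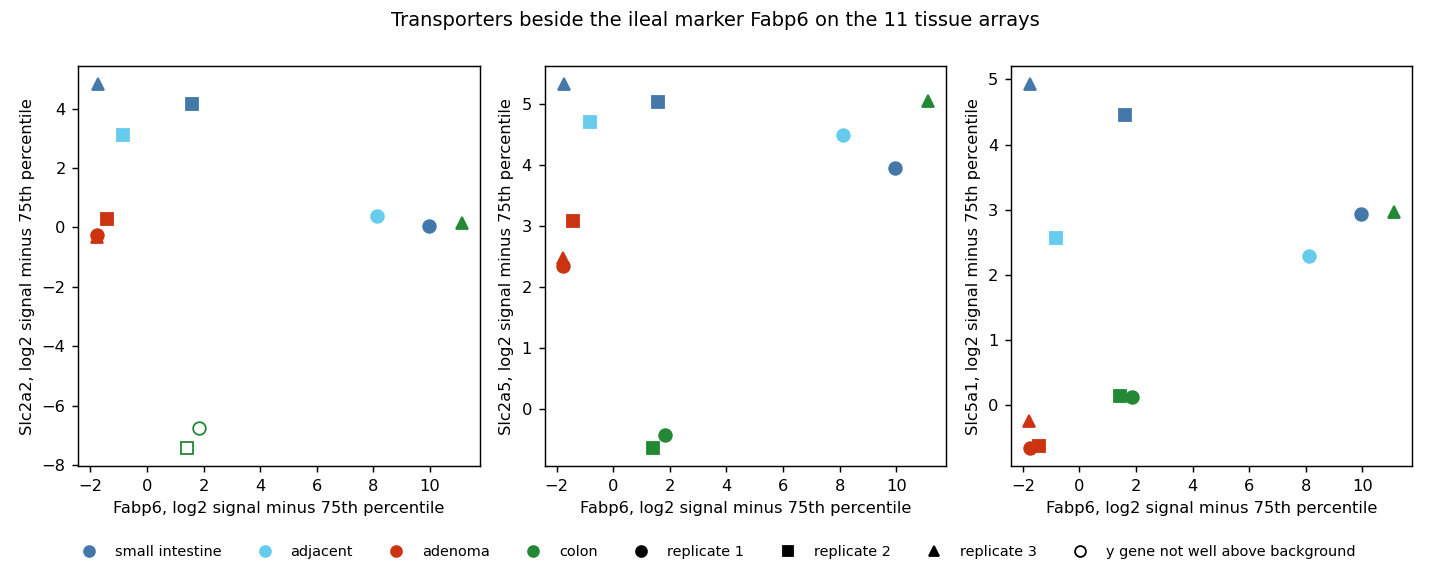
Levels of *Slc2a2*, *Slc2a5* and *Slc5a1* (vertical axes) against *Fabp6* (horizontal axes, all log2 processed signal minus the array's 75th percentile) on the 11 tissue arrays, with open symbols where the transporter was not well above background. The 3 arrays with *Fabp6* at 8.12 or more had *Slc2a2* between 0.045 and 0.4, and the small intestine and adjacent arrays with *Fabp6* at 1.6 or less had it at 3.11 or more.

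Other genes of hexose handling were read from 5 lists. Beside their counts between adenomas and small intestine stand the shares over all genes, 12.2% called higher and 12.1% lower. Among 11 other transporters tested, adenomas had 4 lower and 1 higher than small intestine, with a list median of -1.04. *Slc5a4b* and *Slc5a4a*, close paralogs of *Slc5a1* in the mouse whose signals may not be fully separate, fell with log2FC of -6.09 ± 0.803 (SE, adjusted p = 0.00117) and -4.45 ± 0.825 (adjusted p = 0.00455). The inositol carrier *Slc5a11* (-4.04) and the urate carrier *Slc2a9* (-2.5) fell as well. *Slc2a6* rose, with a log2FC of 1.53 ± 0.217 (SE, adjusted p = 0.00156).

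Of 4 brush border disaccharidases, which release hexoses from sugars, 3 fell and 0 rose. Sucrase-isomaltase, *Sis*, had a log2FC of -4.61 ± 0.445 (SE, adjusted p = 0.000357) and *Mgam* of -3.06 ± 0.278 (adjusted p = 0.000286), while lactase, *Lct*, at -3.08 ± 0.944 (adjusted p = 0.0303), did not pass. Of 11 hexose-processing enzymes, 6 were called lower and 2 higher. Glucose-6-phosphatase, *G6pc*, fell by 3.22 and *Galm*, which interconverts the forms of galactose, by 3.07 on the log2 scale. Ketohexokinase, *Khk*, the first enzyme of fructose breakdown, fell as well, with a log2FC of -3.04. Hexokinase 2, *Hk2*, rose by a log2FC of 2.28 ± 0.317 (SE, adjusted p = 0.00144), and *Hk1* passed only on a probe other than its brightest, which gave 0.08.

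Of 8 regulators of hexose transporter genes, 5 fell and 0 rose. *Mlxipl*, the carbohydrate response factor ChREBP, fell by 2.11 and its partner *Mlx* by 1.87 on the log2 scale, and *Cdx2* and *Hnf4a* fell by 1.41 and 1.4. *Hif1a*, the hypoxia-inducible factor, had a log2FC of 1.56 with a limma adjusted p that rounds to 0.01, and just missed a call. Of the sodium pump and sweet taste receptor genes, 3 of 3 tested fell, among them *Atp1b1* by 1.46 and *Tas1r3* by 1.41. Against adjacent tissue, 1 other transporter (*Slc5a11*), 1 disaccharidase (*Mgam*) and 3 enzymes (*Khk*, *G6pc* and *Galm*) fell, and none of the 5 lists had a gene called higher. Of all genes, 2.64% were called higher there and 2.01% lower. Between adjacent tissue and small intestine, 0 genes of these lists were called by limma, where 0.00923% of all genes were called higher and 0% lower.

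**Figure D5:**
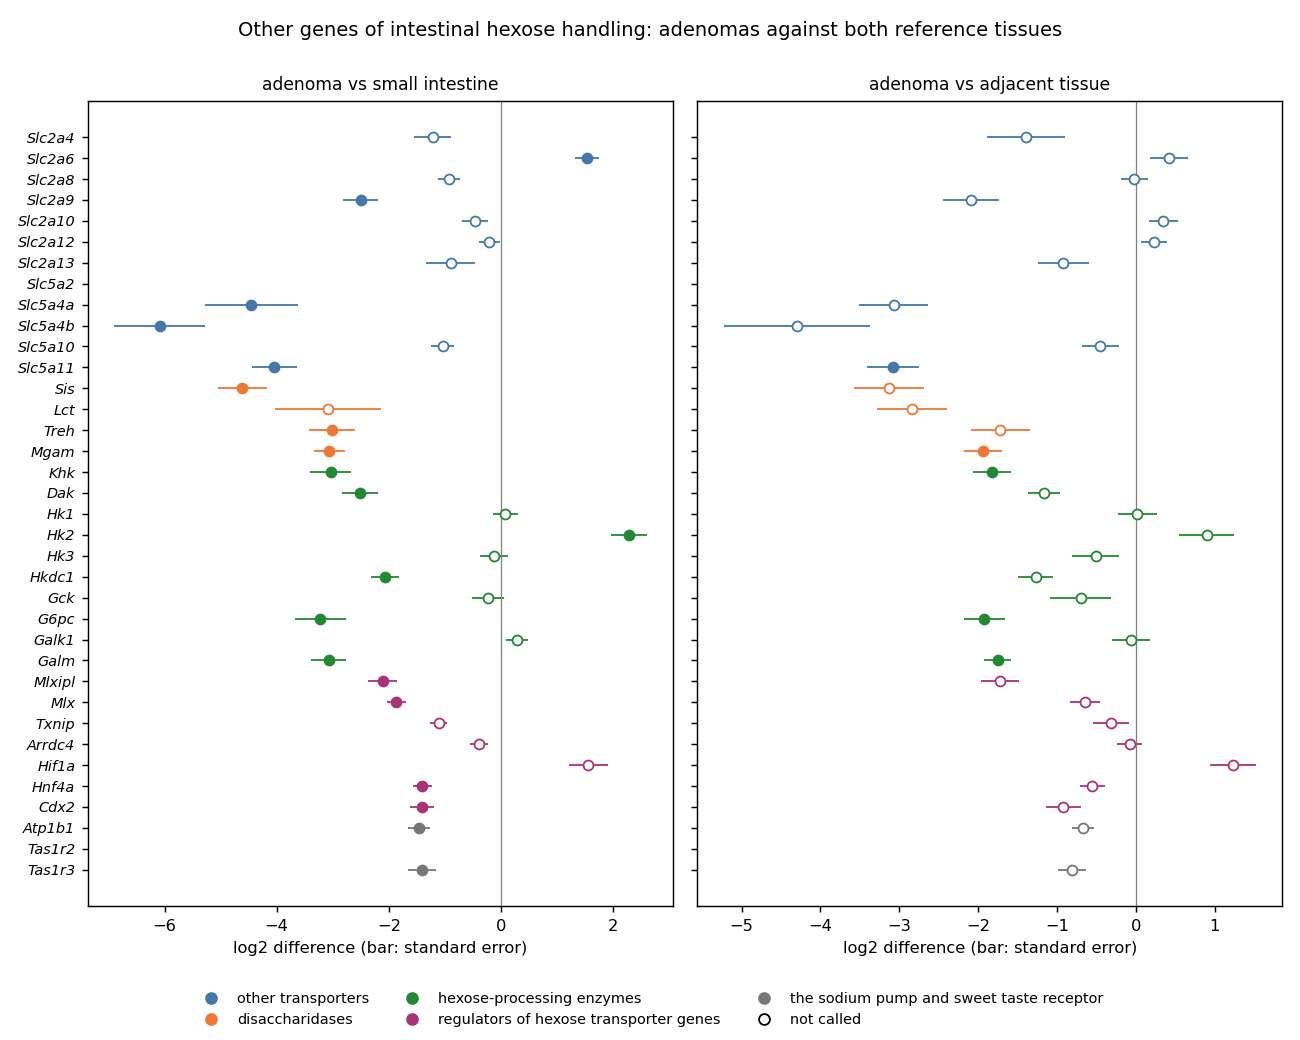
Log2 difference (horizontal axis, points, with standard errors as bars) of genes of the 5 lists in adenomas against small intestine (left) and against adjacent tissue (right), with filled symbols for calls on the brightest probe. In the left panel *Slc5a4b*, at -6.09, lies lowest and *Hk2*, at 2.28, highest, and in the right panel *Slc5a11*, *Mgam*, *Khk*, *G6pc* and *Galm* are the filled points.

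In colon against small intestine, 0 genes of the 5 lists were called with all arrays. Without colon replicate 3, 4 of 4 disaccharidases fell, 6 of 11 enzymes fell and 2 rose, 1 of 8 regulators fell, 0 of 3 sodium pump and taste receptor genes were called, and 4 of 11 other transporters fell and 1 rose, while the list medians of disaccharidases, enzymes and other transporters were -10.23, -2.59 and -0.17 beside -0.04 over all probes. In that fit 3.82% of all genes were called higher and 4.22% lower. Between adenomas and colon, with all arrays, 1 gene of the lists was called, *Slc2a4*, the insulin-responsive GLUT4, with a log2FC of -1.87 ± 0.189 (SE, adjusted p = 0.00411). In the same fit 5 of 5 smooth muscle markers were called lower, with a median log2FC of -2.72. Their part in the difference of *Slc2a4* was not tested, and its value without colon replicate 3 is not given here. Without colon replicate 3, 3 of 4 disaccharidases were called higher in adenomas, as were 5 of 11 enzymes and 1 of 11 other transporters, while 1 enzyme, 2 other transporters and 1 of 8 regulators were called lower, where 5.51% of all genes were called higher and 7.45% lower.

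Of 9 other transporters tested between CT26 and colon, 2 rose and 3 fell, or 1 and 4 without colon replicate 3. Of the enzymes 1 of 8 rose and 3 fell, or 0 and 4 of 9 without that array, and of the 8 regulators 1 rose and 5 fell either way. Over all genes 23.4% rose and 17.1% fell, or 22.4% and 21% without that array, so that with all arrays the share of other transporters that rose was near that of all genes. With all 3 colon arrays, *Slc2a6* rose in CT26 against colon by a log2FC of 1.83 ± 0.288 (SE, adjusted p = 0.00141) and *Slc2a12* by 1.33. *Slc2a4* was at least 184-fold and *Slc2a10* at least 21.7-fold lower, and *Slc2a13* had a log2FC of -4.9. Of 5 smooth muscle markers, 5 were called lower there as well, and their part in the difference of *Slc2a4* was not tested. *Hnf4a* was at least 5760-fold lower than in colon, and *Mlxipl* and *Cdx2* had log2FC of -4.7 and -8.27. *Hif1a*, with a log2FC of 1.57 ± 0.322 (SE, adjusted p = 0.00487), was called higher, and *Hk2*, at -0.47 ± 0.296 (adjusted p = 0.224), was not called. Values of these genes without colon replicate 3 are not given here. Which other transporter was called higher without that array therefore cannot be read from the counts.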

How the data were processed

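Total RNA of 14 samples was labelled with Cy3 and hybridized to 60-mer Agilent arrays on 2 slides. The authors deposited the scanner output of Feature Extraction 10.7.3.1, which holds a background-subtracted intensity for every spot. A second deposited table holds log2 values on a common scale, whose normalization is not given in the sources used here, and its 28 flag columns and the fold changes and p-values of 7 comparisons were not used.

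Control and outlier spots were left out, log2 signals were scaled to each array's 75th percentile, and spots of a probe were averaged. Each gene was read from its brightest probe. Groups came from the labels. Each comparison used the arrays of its groups alone and moderated tests from limma 3.58.1 (lmFit, then eBayes; R 4.3.3), with Benjamini-Hochberg adjustment over all probes tested, after tests on simulated data. Replicates are separate samples, and p-values measure only the spread between them. Where 1 group was not above background, the fold is a bound on the difference of the group means and does not take in the spread between arrays. It was set on each array by the lowest signal well above background, or by the probe's own signal where that was higher. The number of arrays limits the precision.

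Named were the 6 members, the 2 largest calls of each list and the 3 most alike genes. Other genes of the lists were named after their values were seen, and some members of the lists and 1 motif searched are not reported here. The members and lists were chosen with earlier results of these data known. Of the listed genes, *Rsc1a1*, *Adgre1*, *Hbb-bt*, *Slc51a* and *Slc51b* were not found by name on the array. Alternatives were normexp background correction with an offset of 50, quantile normalization, the authors' table, other filters, a floor, a joint fit, slide or replicate number as a block, a looser threshold, and fits that left out 1 array each.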

Additional observations from a re-analysis of the deposited data

How the results depend on the processing

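Of the 6 genes, 4 were called between adenomas and small intestine, and each alternative called 3 to 5. Between adenomas and adjacent tissue the count of 4 was 0 with no filter on dim probes and in one fit of all 5 groups, and 1 with slide as a block. There, with the replicate number as a block, on the arrays whose number both groups share, it was also 0, and with the title numbers as a block (pieces with the same title number) 0, which leaves 4 arrays for the fit. Leaving out each array gave 0 to 3. Arrays of the 2 groups with the same replicate number had correlations of their deviations from the group means of -0.089 and -0.013, so the replicate numbers were not taken to pair the samples. This check was not made for the title numbers, so a pairing by title was left undecided, and the main fit was unpaired. The replicate block left the counts of the other 5 comparisons at 4, 0, 0, 4 and 0. Between colon and small intestine, leaving out each array gave 0 to 4 against 0. Between CT26 and colon, a filter that requires both groups above background left 1 gene to test and 0 called against 4, and between adenomas and colon an adjusted p of 0.05 with no minimum fold called 1 and leaving out each array gave 0 to 3, against 0. Signs turned only for differences that were not called. *Slc2a5* between adjacent tissue and small intestine was 0.25 after quantile normalization, 0.29 in the authors' table and 0.1 with the replicate block, and -0.59 to 0.1 on leaving out each array. On leaving out each array *Slc2a2* there ran from -2.73 to 0.11, *Slc2a3* between adenomas and small intestine from -0.36 to 0.14, *Slc2a1* between CT26 and colon from -0.27 to 1 and between adenomas and colon from -0.44 to 0.83. The cause of these changes was not tested, beyond the fewer arrays in each fit and, for the filters, the other number of probes adjusted over. The counts of the 6 genes in the alternatives are given without those of all genes. They do not separate these genes from a change in calls over all genes.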
